A study of Mus musculus with 2 samples.

Results

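The small leucine-rich proteoglycans are secreted matrix proteins whose leucine-rich repeats bind collagen fibrils, and several of them carry sulfated sugar chains. The members were chosen by gene symbol, as 9 genes of the 32285 in the table: Dcn (decorin), Bgn (biglycan), Aspn (asporin), Lum (lumican), Fmod (fibromodulin), Prelp, Kera (keratocan), Omd (osteomodulin, also called osteoadherin) and Ogn (osteoglycin, also called mimecan). They were measured by droplet single-cell RNA sequencing of mouse periodontal ligament, the tissue that ties the tooth root to its bony socket, in 1 library from the unloaded right side (control) and 1 library from the side under orthodontic tooth movement (OTM), where a 10-g force pulled the left upper first molar forward for 6 days. Each library pooled tissue from 5 male C57BL/6J mice 8 weeks old, taken from extracted roots and sockets and digested with collagenase and then trypsin. Whether the same mice gave both sides is not stated in the labels, and the digestion is shared by both libraries.

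Decorin and biglycan carry chondroitin or dermatan sulfate chains and bind growth factors of the transforming growth factor beta family as well as collagen. Lumican, fibromodulin, Prelp, keratocan and osteomodulin belong to the branch of the family whose members mostly carry keratan sulfate, in which lumican and fibromodulin control the width of collagen fibrils. Asporin is known as periodontal ligament-associated protein and is a negative regulator of mineralization, whereas osteomodulin is a protein of mineralized tissue made by osteoblasts and odontoblasts. Osteoglycin, of a further branch, was first isolated from bone and is made in many connective tissues.

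The control library held 369 barcodes and 5723299 UMIs (unique molecular identifiers, each standing for 1 captured transcript), and the OTM library held 1539 barcodes and 36010801 UMIs. After barcodes with fewer than 200 genes or more than 20% mitochondrial counts were removed, 348 control and 1412 OTM cells were left, with a median of 14877 and 19583 UMIs, and the libraries shared 0 barcodes. With 1 library a group there is no replicate and therefore no test: every interval below is a 95% interval of counting error alone, and the spread between mice is unknown. Cells were clustered without the 9 members and 10 related genes, so the clusters do not rest on the family. The stromal clusters were 7 and 17 (fibroblast-like), 8 and 9 (osteoblast lineage-like), 6 (mural-like, the pericytes and smooth muscle of vessels), and 0 and 16, which stayed unnamed. Cluster 0 was led by Pcp4, Mfap4 and Wif1. It scored highest for a dental pulp and odontoblast list, with 7 of the 8 markers detected in at least 10% of its cells. The other marker, Dspp, which defines odontoblasts, had 0 UMIs in its cells. The 10 leading genes of cluster 0 held 0 markers of that list and 1 of the fibroblast list, Mfap4. Whether cluster 0 holds pulp cells was not tested. Cluster 16 was led by histone genes and Top2a, which are genes of dividing cells. It scored highest as fibroblast, but its 10 leading genes held 0 markers of that list. Against the ligament label, Postn, Tnmd and Col3a1 were among the leading genes of cluster 7, and Scx, the tendon and ligament transcription factor, stood at 57.3 CPM (UMIs of the gene per 1000000 UMIs summed over the cluster) in its control cells and 35.1 CPM in its OTM cells. Scx and Tnmd were not particular to cluster 7. Scx stood at 39.9 CPM in control cells of cluster 8 and 55.2 CPM in cluster 17. Tnmd stood at 567 CPM in 10 control cells of cluster 9, against 154 CPM in control cells of cluster 7. The dental pulp and odontoblast list was likewise not particular to cluster 0. Its 8 markers summed to 640 CPM in control and 592 CPM in OTM cells of cluster 0. The sums were 1140 and 977 CPM in cluster 8, and 542 and 447 CPM in cluster 7.

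Family transcripts lay almost wholly in stromal cells. The 7 stromal clusters, which held 159 control and 689 OTM cells, carried 99.3% of the control library's 33104 family UMIs and 96.8% of the 183947 in OTM. The family made up 0.95% of all UMIs in the control stroma and 0.99% in the OTM stroma. The named stromal clusters alone, without 0 and 16, carried 50.1% and 83.1%, because cluster 0 held 48.8% of the control library's family UMIs and 8.11% of the OTM library's. By contrast, neutrophil-like cells, among the lowest groups, held 5 family UMIs in 33 control cells and 34 in 148 OTM cells, or 13.0 and 30.4 CPM. All cells outside the stroma, with unnamed cluster 1 left out, stood at 92.8 CPM in control and 310 CPM in OTM. Macrophage or monocyte-like cells stood at 107 and 899 CPM, and Schwann-like cells at 1106 and 2345 CPM. Of the 610 OTM family UMIs of macrophage or monocyte-like cells, 581 lay in 12 cells of a single cluster. Endothelial-like cells stood at 229 and 404 CPM, and epithelial-like cells at 49.9 and 344 CPM. In OTM, 1 cell gave 32.1% of the family UMIs of macrophage or monocyte-like, 38.6% of endothelial-like and 33.2% of epithelial-like cells. Without the cell with most family UMIs in each library, macrophage or monocyte-like cells stood at 77.3 and 658 CPM and Schwann-like cells at 1341 and 1840 CPM. Endothelial-like cells then stood at 205 and 250 CPM and epithelial-like cells at 42.0 and 233 CPM.

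Shares of cells with a UMI gave the same separation. Bgn was seen in 96.9% of control and 98.7% of OTM stromal cells, against 6.06% and 4.73% of neutrophil-like cells, which should lack it and serve here as the background of free RNA. Median depths were 19002 and 21863 UMIs in the stromal cells and 11322 and 5412.5 UMIs in the neutrophil-like cells. With every cell thinned to 1500 UMIs the Bgn shares became 90.4% and 93.2% in stromal cells, and 0 of 33 control and 0.685% of OTM neutrophil-like cells. The count of 0 in 33 cells, set at 3 cells, gives a rough limit of 9.09%. Thinning left out 3 control and 12 OTM stromal cells.

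Kera was not detected: it had 0 UMIs in both libraries, which allows up to 3 UMIs, or 0.536 CPM (control) and 0.0845 CPM (OTM). The other 8 members had at least 30 UMIs in each library. UMIs here count 3′ ends and are not scaled by transcript length, so levels of different genes are on the same scale only as counts of captured ends. In kept cells the control library had 8067 UMIs of Bgn, 7780 of Dcn, 6469 of Omd, 5024 of Lum, 2976 of Aspn, 2589 of Ogn, 169 of Fmod and 30 of Prelp. The OTM library had 60633 UMIs of Lum, 44173 of Bgn, 38885 of Dcn, 15110 of Aspn, 14531 of Omd, 7702 of Ogn, 2508 of Fmod and 405 of Prelp. Lum was thus the fourth most counted member of the control library and the first of OTM.

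The members sit in 3 groups of neighbours on the mouse genome, apart from Bgn on chromosome X (GRCm38, chrX:73483602-73495933). Dcn (chr10:97479609-97518143), Lum (chr10:97565128-97572703) and Kera (chr10:97606879-97613692) lie in this order on the plus strand of chromosome 10, within 202.8 kb that also holds their relative Epyc. Prelp (chr1:133910304-133921414, minus strand) and Fmod (chr1:134037254-134048277, plus strand) span 138.0 kb of chromosome 1. Aspn (chr13:49544443-49567565), Omd (chr13:49582462-49592822) and Ogn (chr13:49608046-49624501) follow their relative Ecm2 on the plus strand of chromosome 13, all within 119.7 kb. Neighbours differed in level within the same cells: Kera had 0 UMIs beside Lum and Dcn, and Omd was high in osteoblast lineage-like cluster 8 where Aspn and Ogn on either side of it were at 105 CPM or less.

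The chromosome 13 genes are shown by sequence because their levels part between stromal clusters. Each sequence is the 150 bases before the RefSeq start of the gene on the plus strand of GRCm38.p6, read 5′ to 3′, at chr13:49544293-49544442 for Aspn, chr13:49582312-49582461 for Omd and chr13:49607865-49608014 for Ogn; capitals mark matches to any of 5 motifs searched on both strands.
Aspn: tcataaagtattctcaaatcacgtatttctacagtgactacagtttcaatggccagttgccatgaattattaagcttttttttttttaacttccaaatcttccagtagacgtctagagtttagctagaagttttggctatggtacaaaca
Omd: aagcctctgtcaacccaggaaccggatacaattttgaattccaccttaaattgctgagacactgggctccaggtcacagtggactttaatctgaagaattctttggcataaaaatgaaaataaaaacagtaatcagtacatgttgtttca
Ogn: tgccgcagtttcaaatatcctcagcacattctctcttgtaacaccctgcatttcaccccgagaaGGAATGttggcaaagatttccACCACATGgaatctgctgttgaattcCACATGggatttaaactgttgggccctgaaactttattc
The motifs are read here as letters only. The letters searched for the TATA box were TATAAA. Those searched for the AP-1 motif were TGANTCA. For factors of the Runx family the letters were TGTGGT. For factors of the TEAD family they were CATTCC. The E-box form bound by scleraxis and twist factors was searched as CATNTG. Ogn held the TEAD letters on the minus strand 86 to 81 bases before its start, the Runx letters on the minus strand at 65 to 60, and the E-box letters on the minus strand at 63 to 58, where they overlap the Runx letters, and again at 39 to 34. Aspn and Omd held none of the 5 motifs. Among all 32851 RefSeq promoters cut to the same length, 7.59% held the TEAD letters, 8.40% the Runx letters, 21.93% the E-box letters, 7.57% the TATA box and 4.24% the AP-1 motif. Of the 7 members with a promoter in the RefSeq table, 1 held the TEAD, Runx and E-box letters, and this was Ogn. GC content was 33.3% for Aspn, 38.0% for Omd and 44.0% for Ogn.

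**Figure D1:**
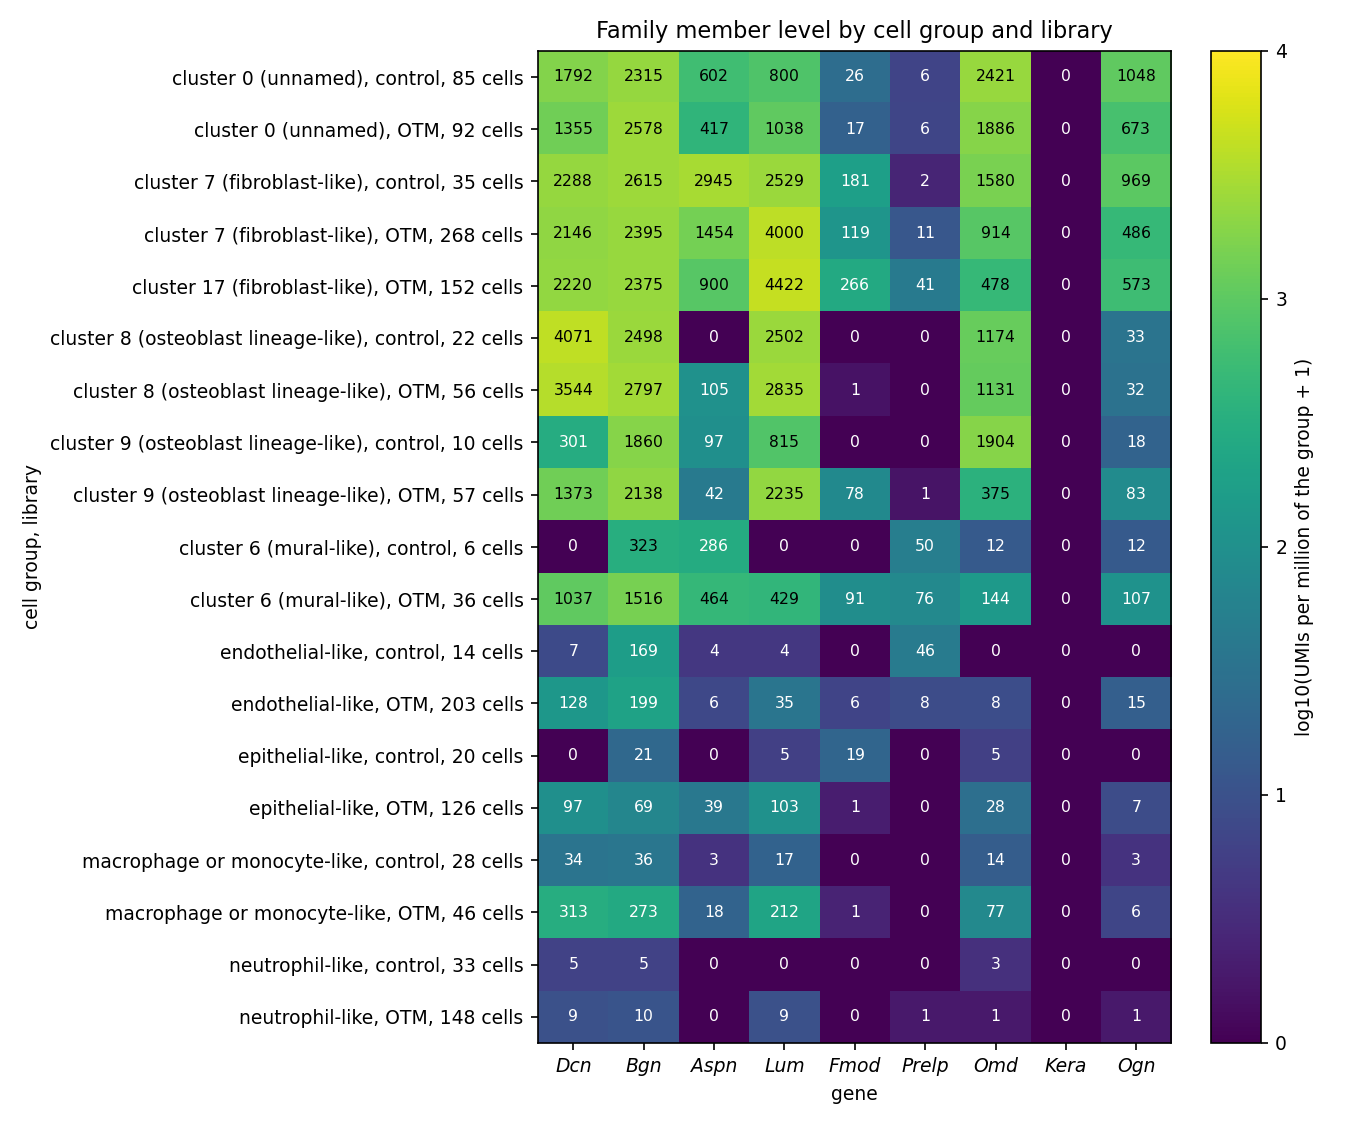
Level of each member as UMIs per 1000000 of the group's summed UMIs (numbers in the cells; colour is log10 of that value + 1) for each cell group (rows, with library and number of cells) and gene (columns). The stromal clusters other than cluster 16 fill the upper rows, Aspn and Ogn are low in cluster 8, and Kera is 0 throughout. Cluster 16 and some groups outside the stroma are not drawn.

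Biglycan differed little between the large stromal clusters. Its level was 2315 CPM in cluster 0, 2615 in cluster 7 and 2498 in cluster 8 of the control library, and 2578, 2395 and 2797 CPM in the same clusters of the OTM library, with 2375 CPM in cluster 17. In the control library the intervals of clusters 7 and 8 overlapped, as did those of 8 and 0. Cluster 7, the highest of the 3 control clusters, was 1.13-fold above cluster 0, the lowest.

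Decorin was highest in osteoblast lineage-like cluster 8, which was led by Bglap, Dmp1 and Ifitm5, genes of mature osteoblasts and osteocytes. In the control library its level was 4071 CPM in cluster 8, 2288 in cluster 7 and 1792 in cluster 0, with no overlap between the intervals. In the OTM library the order was the same, at 3544, 2146 and 1355 CPM, with 2220 in cluster 17. Cluster 8 stood 1.78-fold above cluster 7 in control cells and 1.65-fold above it in OTM cells. In the control library 1 of the 22 cells of cluster 8 gave 27.9% of its family UMIs. The level of the whole family there was 10277 CPM with that cell and 10135 CPM without it. The level of Dcn alone without that cell was not calculated. With cells thinned before clustering the OTM difference turned to -0.16 on the log2 scale.

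Asporin was high in fibroblast-like cluster 7 and near absent from cluster 8. In the control library it stood at 2945 CPM in cluster 7 and 602 in cluster 0, a 4.89-fold difference (4.53 to 5.27), and at 0 UMIs in the 22 cells of cluster 8. In the OTM library it stood at 1454 CPM in cluster 7, 900 in cluster 17, 417 in cluster 0 and 105 in cluster 8. The OTM value of cluster 8 rests on 186 UMIs in 6 of 56 cells, 108 of them from 1 cell, and is 49.9 CPM without that cell. Cells with an Aspn UMI made up 91.4% of cluster 7 in control and 80.6% in OTM, or 84.8% and 63.4% after thinning. Relative to cluster 7, Aspn in cluster 8 was at least 739-fold lower in the control library (0 UMIs, set at 3) and 13.9-fold lower in the OTM library.

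Osteoglycin followed asporin in being near absent from cluster 8. It stood at 1048 CPM in cluster 0 and 969 in cluster 7 of the control library, whose intervals overlapped, against 33.2 CPM in cluster 8. The OTM values were 673 CPM in cluster 0, 573 in cluster 17, 486 in cluster 7 and 31.6 in cluster 8. Cluster 8 was therefore 29.2-fold below cluster 7 in control cells and 15.4-fold below it in OTM cells. Outside the stroma, Ogn was the leading member of Schwann-like cells (the glia that wrap nerve fibres), with 49 UMIs in 4 control cells and 288 UMIs in 15 OTM cells, or 904 and 1589 CPM. These cells held 1 Lum UMI and 4 Omd UMIs in the OTM library. Ogn was seen in 12 of the 15 OTM cells, the cell with most holding 16.3% of the UMIs, and in 73.3% of them after thinning. It was seen in 0 of 146 OTM neutrophil-like cells thinned alike, a rough limit of 2.05% with the 0 set at 3 cells.

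Osteomodulin was highest in cluster 0. The control levels were 2421 CPM in cluster 0, 1580 in cluster 7 and 1174 in cluster 8. In the OTM library cluster 0 stood at 1886 CPM, cluster 8 at 1131, cluster 7 at 914 and cluster 17 at 478. Unlike Aspn and Ogn, its chromosome 13 neighbours, Omd was thus kept in cluster 8, where 90.9% of control and 94.6% of OTM cells had a UMI. In cluster 9, the other osteoblast lineage-like cluster, which was led by Ibsp and Spp1, it was 1904 CPM in 10 control cells and 375 CPM in 57 OTM cells.

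Lumican was lower in cluster 0 than in clusters 7, 8 and 17. In the control library it stood at 800 CPM in cluster 0, 2529 in cluster 7 and 2502 in cluster 8, the last pair with overlapping intervals. The OTM values were 1038 CPM in cluster 0, 4422 in cluster 17, 3999.9 in cluster 7 and 2835 in cluster 8. Cluster 7 exceeded cluster 0 by 3.16-fold in control cells and 3.85-fold in OTM cells.

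Fibromodulin and Prelp, a member that can anchor basement membranes to the matrix, were scarce and seen in fewer cells. Fmod stood at 181 CPM in cluster 7 and 25.7 in cluster 0 of the control library, and at 266 CPM in cluster 17, 119 in cluster 7 and 16.6 in cluster 0 of the OTM library. An Fmod UMI was seen in 7 of 35 control and 73 of 268 OTM cells of cluster 7, against 108 of 152 cells of cluster 17. In cluster 8 it had 0 UMIs in control cells and 1 in OTM cells. Prelp stood at 41.2 CPM in cluster 17, 11.03 in cluster 7 and 5.88 in cluster 0 of the OTM library, and reached 75.5 CPM in 36 mural-like OTM cells. Of the 30 control UMIs of Prelp, 13 came from 1 endothelial-like cell.

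Counted over members, cluster 7 stood at least 2-fold above cluster 0 for 3 of 7 members in the control library (Lum, Fmod, Aspn), where 5.78% of all genes with enough UMIs were as far above, and no member was 2-fold below, against 13.0% of genes. A gene counted as having enough UMIs if at least 10 were expected in each group at equal CPM. In the OTM library the same 3 of 8 members were at least 2-fold above (6.25% of genes), by 3.85-fold for Lum, 7.18-fold for Fmod and 3.48-fold for Aspn, and Omd was 2.06-fold below (4.86% of genes). The Lum and Aspn differences kept a log2 value of 1.42 or more and 1.41 or more under every alternative that gave one in the OTM library, whereas Fmod in the control library turned to -0.53 with no filter on barcodes. With the control library clustered alone, clusters 0 and 7 were both matched best by 1 cluster of 74 cells, which held 38 of the 85 cells of cluster 0 and 20 of the 35 of cluster 7, so the contrast had no value there.

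Against cluster 7, cluster 8 had 3 of 7 members at least 2-fold lower in the control library (Aspn, Fmod and Ogn; 15.3% of genes) and none 2-fold higher (7.72% of genes). In the OTM library 4 of 8 were lower (Aspn, Fmod, Ogn and Prelp; 15.1% of genes) and none higher (4.20% of genes). Fmod was 211-fold lower there on 1 UMI, and turned to 0.50 on the log2 scale with the stricter cell filter. The endothelial list, whose 12 markers summed to 223 CPM in control cells of cluster 8 with none at 0, summed to 20.3 CPM in its OTM cells with 7 at 0; the part of those transcripts in the cluster 8 levels was not tested.

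Cluster 17 existed only in the OTM library, where it held 152 cells led by Pdzrn4, Ccn5, Mmp13 and Fgf7. Against cluster 7 of the same library, 2 of 8 members were at least 2-fold higher, where 2.62% of genes were: Prelp by 3.74-fold (2.81 to 5.03) and Fmod by 2.23-fold (2.03 to 2.45). None was 2-fold lower, against 5.87% of genes, and Omd was 1.91-fold and Aspn 1.62-fold lower. These values depend on where the clusters are parted: with doublets removed before clustering, Prelp moved to -0.08 and Fmod to 0.29 on the log2 scale, and 3 alternatives did not part cluster 17 from cluster 7. Omd and Aspn were lower in cluster 17 under each of the 4 alternatives that parted them, by log2 values of -1.59 to -1.02 and -2.05 to -1.20.

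**Figure D2:**
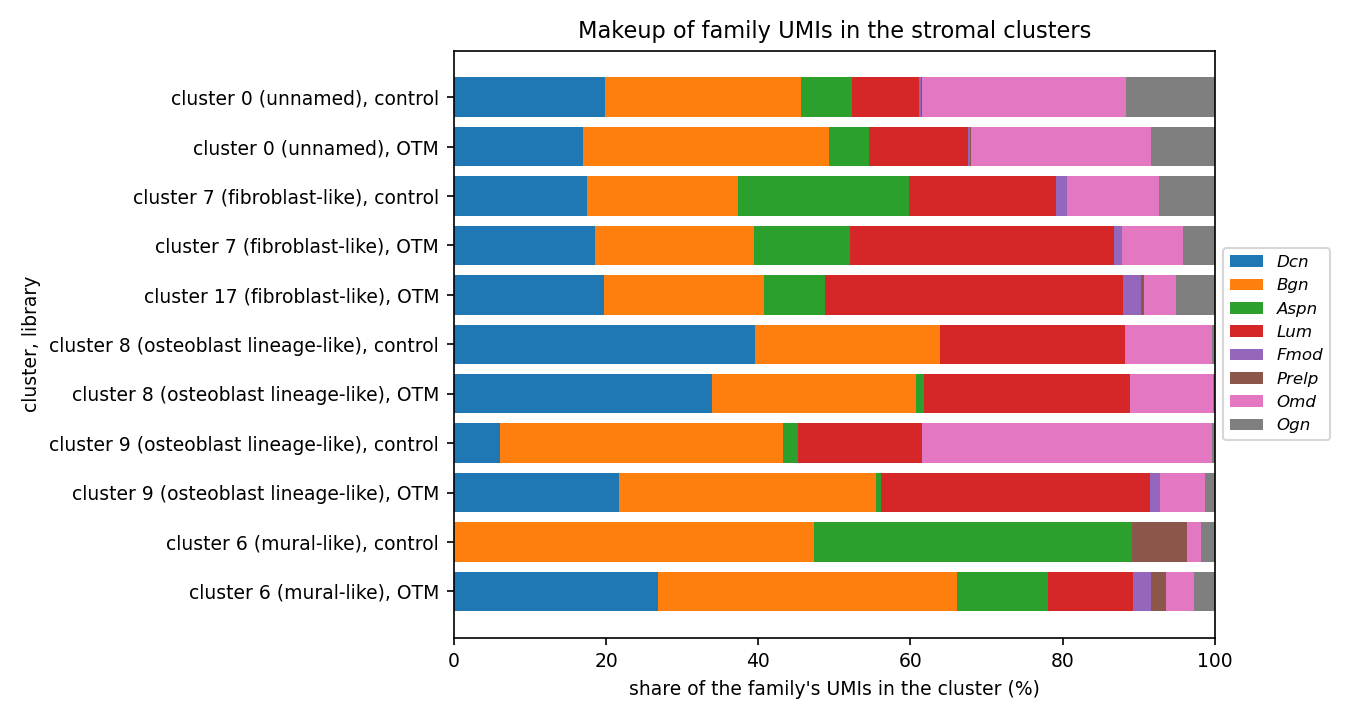
Share of the family's UMIs (horizontal axis, percent) taken by each member (colours) in each stromal cluster and library (rows). Kera, at 0 UMIs, and cluster 16 are left out. Lum takes a larger share and Omd a smaller one in fibroblast-like clusters of the OTM library, and Dcn takes the largest share in cluster 8.

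The planned comparison of OTM with control was over the named stromal clusters. There 1 of 8 members was at least 2-fold higher in OTM and 0 were at least 2-fold lower. All 7 stromal clusters together were planned as an alternative to it. They are given first here because that set changed little with the way cells were clustered. This was seen under alternatives chosen after seeing the data. Over all 7 clusters, 3 of the 8 members with enough UMIs were at least 2-fold higher in the OTM library, as were 5.32% of 12101 genes. In the other direction 1 was at least 2-fold lower, as were 4.48% of genes. The median log2 ratio of the 8 was -0.02, against 0.01 for all genes. The members higher in OTM were Lum, Fmod and Prelp, and the member 2-fold lower was Omd, all of the branch that holds the keratan sulfate members. Bgn, Dcn and Aspn were within 1.09-fold of their control level.

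Lum stood at 1453 CPM in the control stroma and 3324 CPM in the OTM stroma, 2.29-fold higher (2.22 to 2.36). Its range over the 12 alternatives was 1.17 to 1.27 on the log2 scale. It was seen in 81.1% of control and 92.0% of OTM stromal cells, and the median over cells was 893 and 2531 CPM.

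Fmod stood at 46.4 CPM in the control stroma and 138 CPM in the OTM stroma, 2.96-fold higher (2.53 to 3.50). Within clusters 0 and 7 as reported it was lower in OTM, but in cluster 7 this turned under 5 of 11 alternatives. It was seen in 13 of 159 control cells and 228 of 689 OTM cells, and 1 control cell gave 25.6% of its control UMIs. Prelp stood at 4.93 CPM on 17 UMIs and 19.7 CPM on 353 UMIs, 3.99-fold higher (2.46 to 6.93). Its log2 ratio ran from 1.19 to 2.00 over the alternatives. With thinned cells 2 members in place of 3 were counted as at least 2-fold higher.

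Omd stood at 1875 CPM in the control stroma and 793 CPM in the OTM stroma, 2.36-fold lower, with a log2 range of -1.29 to -1.10 over the alternatives. The median over cells was 1642 and 549 CPM. Ogn stood at 736 and 406 CPM, 1.82-fold lower, and reached 2-fold under no alternative. Aspn, which lies near both on chromosome 13, was 861 CPM in the control stroma and 825 CPM in the OTM stroma.

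Dcn was 2252 CPM in the control stroma and 2074 CPM in the OTM stroma. Bgn was 2316 and 2359 CPM, a log2 ratio of 0.03 (-0.01 to 0.06) whose interval spans 0.

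The clusters that make up the stroma differed between the libraries. Cluster 0, low in Lum and high in Omd, held 85 of the 159 control stromal cells and 92 of the 689 OTM ones, and cluster 17 held 0 and 152. Within clusters 0, 7 and 8 the Lum and Omd ratios were smaller than over the whole stroma: the log2 ratio of Lum was 0.38, 0.66 and 0.18, and that of Omd -0.36, -0.79 and -0.05. In cluster 9, with 10 control cells, they were larger, at 1.46 for Lum and -2.34 for Omd. The Fmod ratio had the opposite sign within clusters 0 and 7 as reported. Fmod went from 25.7 to 16.6 CPM in cluster 0, a log2 ratio of -0.63 (-1.34 to 0.06) whose interval spans 0. In cluster 7 it went from 181 to 119 CPM, a log2 ratio of -0.61 (-0.90 to -0.31). That ratio turned positive under 5 of 11 alternatives, up to 0.63. Cluster makeup, digestion yield and expression per cell cannot be told apart with 1 library a side.

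Within cluster 0, no member with enough UMIs differed by 2-fold, where 2.92% of genes were 2-fold higher and 3.61% lower in OTM. Ogn was 1.56-fold lower (1048 to 673 CPM) and Aspn 1.44-fold lower (602 to 417 CPM), while Lum was 1.30-fold higher and Bgn 1.11-fold higher. The Dcn ratio of -0.40 (log2) turned positive under 3 alternatives, up to 0.26 with doublets removed before clustering. The named stromal clusters, without 0 and 16, gave 1 of 8 members at least 2-fold higher, Prelp at 7.04-fold on 5 control UMIs (6.03% of genes higher), and none lower (2.49% of genes lower). There Fmod had a log2 ratio that rounds to 1.00 but lay just under the threshold, and Omd was 1.91-fold lower.

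Within cluster 7, asporin was the only one of 7 members at least 2-fold lower, as were 1.35% of genes, and no member was 2-fold higher, against 5.50% of genes. Its level was 2945 CPM in 35 control cells and 1454 CPM in 268 OTM cells, 2.02-fold lower, and the median over cells was 2067 and 1013 CPM. Ogn was 1.99-fold lower, Omd 1.73-fold lower and Fmod 1.52-fold lower, while Lum was 1.58-fold higher at 2529 and 3999.9 CPM. These ratios hang on which cells the cluster takes in: with doublets removed before clustering, the matching cluster kept 12 of its 35 control cells, and with each library clustered alone the Aspn log2 ratio was 0.81. The Aspn ratio stayed below 0 under the other 10 of 11 alternatives, at -1.56 to -0.78. The 12 neutrophil markers summed to 50.9 CPM in control cells of cluster 7 (5 at 0) and 179 CPM in its OTM cells (2 at 0), and their part in these ratios was not tested.

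Within cluster 8, Aspn was the only one of 6 members past 2-fold, at least 26.3-fold higher in OTM against a control count of 0 set at 3 UMIs, with 3.72% of genes 2-fold higher and 1.71% lower. Most of that came from the 1 cell described above. Dcn was 1.15-fold lower, Bgn 1.12-fold and Lum 1.13-fold higher, and Omd 1.04-fold lower. The family level of cluster 8 was 10277 CPM in control cells and 10444 CPM in OTM cells.

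**Figure D3:**
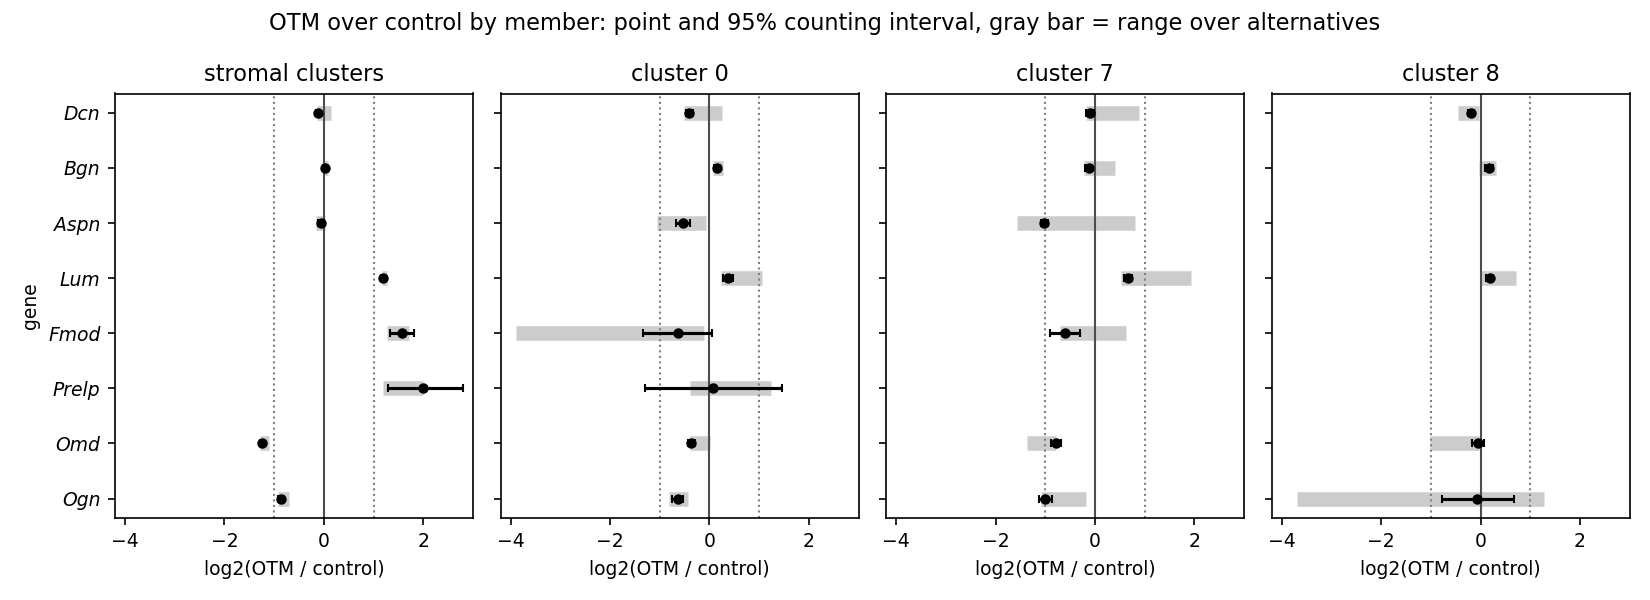
Log2 ratio of OTM over control (horizontal axis) by member (rows) in all 7 stromal clusters and in clusters 0, 7 and 8. Points carry 95% counting intervals, gray bars span the alternatives, and dotted lines mark 2-fold. Members without enough UMIs, or with a count of 0 in a library, such as Aspn in cluster 8, are not drawn. Bars are short for the stroma as a whole, where Lum lies at 1.19 and Omd at -1.24. They are long for several members in cluster 7, and longest for Ogn in cluster 8 and Fmod in cluster 0.

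The smaller stromal groups give values with few control cells. In mural-like cluster 6, Bgn stood at 323 CPM in 6 control cells and 1516 CPM in 36 OTM cells, and Dcn had 0 and 1030 UMIs. The endothelial list summed to 261 CPM in its control cells, with 10 of 12 markers at 0, and to 1606 CPM in its OTM cells, with none at 0, and the part of other cells' transcripts there was not tested. In cluster 9, Dcn was 301 CPM in 10 control cells and 1373 in 57 OTM cells, and Lum 815 and 2235 CPM. Endothelial-like cells carried Bgn at 169 CPM in 14 control cells and 199 CPM in 203 OTM cells, and 71.4% and 71.9% of them had a UMI (28.6% and 22.5% after thinning). Their 736 OTM Dcn UMIs came to 88.5% from 1 cell.

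**Figure D4:**
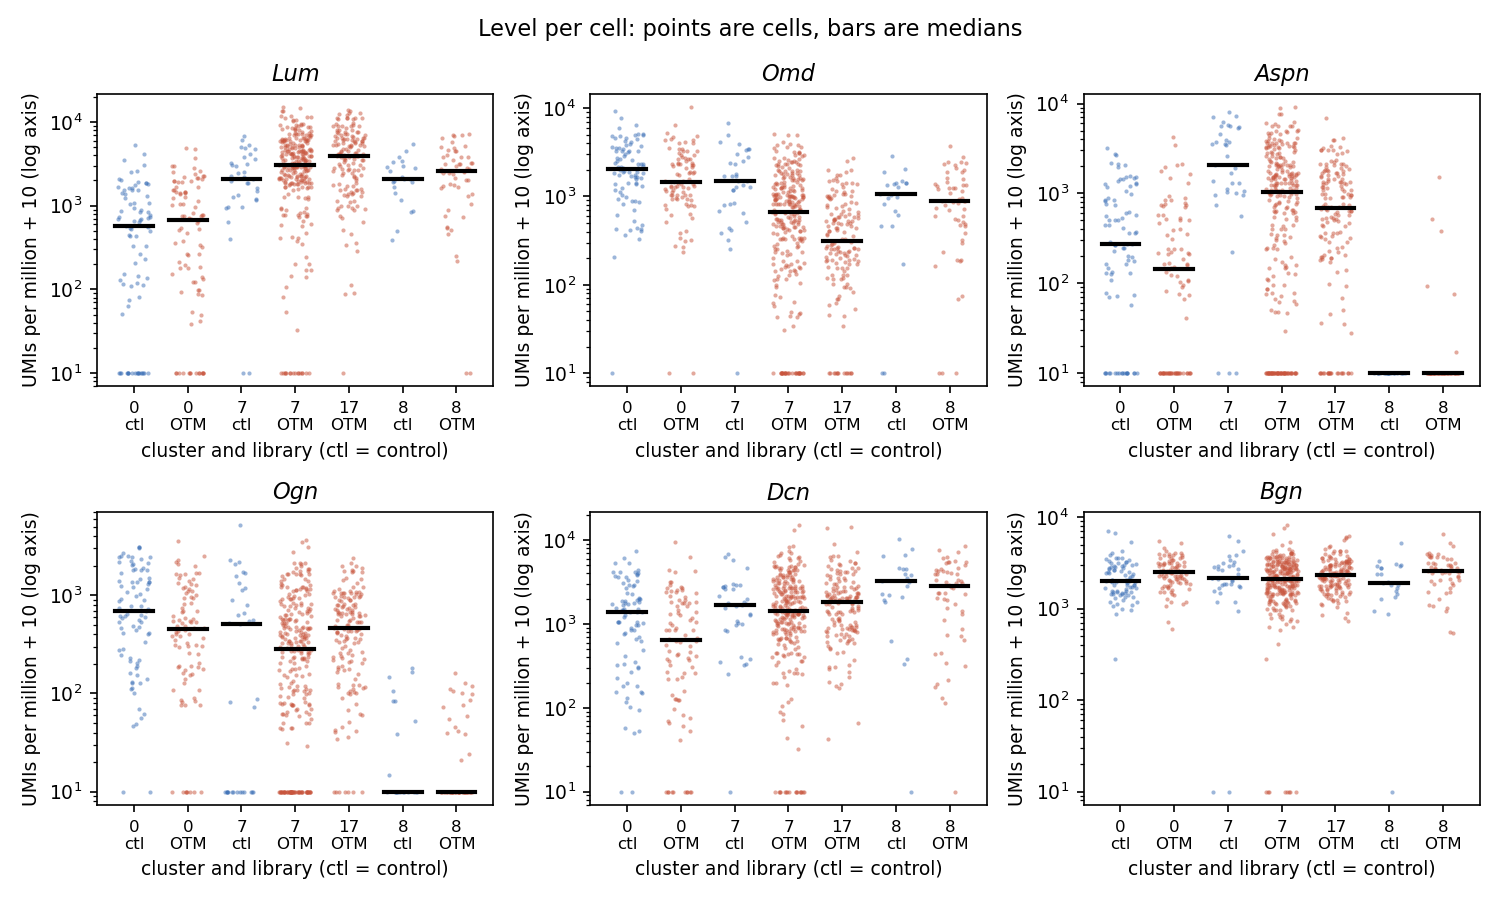
Level of 6 members in single cells (points; vertical log axis, UMIs per 1000000 of the cell + 10) by cluster and library, with medians as black bars. Median Lum is lower in cluster 0 than in clusters 7, 8 and 17, Aspn and Ogn medians lie at the axis floor in cluster 8, and Bgn medians lie close together.

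From cell to cell, members differed in whether they were high together. The following are Spearman correlations of CPM over the cells of 1 cluster and library, which share that library and its free RNA, and are given as description. Lum and Dcn were high in the same cells of cluster 0 (0.55 over 85 control cells, 0.66 over 92 OTM cells), cluster 8 (0.78 over 22, 0.70 over 56) and cluster 17 (0.60 over 152), but not in control cells of cluster 7 (0.01 over 35; 0.42 over 268 OTM cells). Aspn and its chromosome neighbour Omd were correlated at 0.50 and 0.44 in cluster 0, 0.27 and 0.47 in cluster 7 and 0.55 in cluster 17. Lum and Ogn ran opposite in cluster 0, at -0.56 in the control and -0.31 in the OTM library, and were near 0 in clusters 7 and 17.

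Over 23 cluster and library points with at least 20 cells, 6 of them control, the genes most like each member were ranked by Pearson correlation of log2(CPM + 10); the points share 2 libraries and most of the range is stromal against other cells. Dcn was closest to Rcn3 and Mxra8 (both 0.980) and Mmp2 (0.979), and Bgn to the same 3 genes (0.979 to 0.987). Lum was closest to Col5a1 (0.987), the collagen V chain of fibril cores, then to Mmp2 and Kdelr3. Aspn was closest to Itgbl1 (0.954), Ptgfr and Igfbp5, Ogn to Cpxm1 (0.972), Baalc and Pou3f3, and Fmod to Agt (0.947), Fgf7 and Gm32219. Prelp, the rarest, reached 0.858 with Cpxm2, followed by Plac9b and Adra2a.

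Genes that work with the family were followed in the same 7 stromal clusters, as OTM over control. Of 10 collagen chains with enough UMIs, 5 were at least 2-fold higher (5.32% of all genes) and 0 lower (4.48% of all genes), with a median log2 ratio of 1.07 against 0.01 for all genes: Col3a1 was 2.31-fold, Col6a1 3.29-fold, Col6a2 3.02-fold, Col6a3 6.83-fold and Col12a1 2.84-fold higher. The collagen I chains that form the bulk of ligament fibrils were level, at -0.10 for Col1a1 and -0.02 for Col1a2 on the log2 scale. Fewer chains were 2-fold higher within clusters 0, 7 and 8. These were 2 of 10 in cluster 0 (2.92% of genes), 1 of 10 in cluster 7 (5.50%) and 2 of 10 in cluster 8 (3.72%). More were 2-fold higher in the clusters with few control cells. In cluster 9, with 10 control cells, they were 7 of 10 (20.8% of genes). In mural-like cluster 6, with 6 control cells, they were 9 of 9 (20.4% of genes). In cluster 7, Col3a1 stood at 19003 CPM in control and 19528 CPM in OTM cells, Col6a1 was 1.68-fold higher and Col6a3 2.21-fold higher. Col3a1, Col6a2 and Col12a1 were named after their values were seen.

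Proteases known to cut members had 6 of 11 at least 2-fold higher, against 5.32% of all genes, and 0 lower, against 4.48%, with a median log2 ratio of 1.20. Mmp13, a collagenase, stood at 296 CPM in control stroma and 3723 CPM in OTM stroma, 12.6-fold higher, and Htra1 was 2.81-fold higher. Within clusters 0, 7 and 8, Mmp13 was 2.14-fold, 5.08-fold and 1.65-fold higher. Htra1 was lower in OTM cells of cluster 7, at 1522 CPM in control and 1227 CPM in OTM (log2 -0.31). Mmp9 had 3 control UMIs and 539 OTM UMIs, a log2 ratio of 5.11 (3.56 to 7.39). The other 3, Adamts4 (2.30-fold), Mmp3 (0 and 185 UMIs) and Gzmb (0 and 68 UMIs), were named after their values were seen. Mmp9 was also among the leading genes of osteoclast-like cells, and Gzmb led an unnamed cluster outside the stroma, and the part of other cells' transcripts in their values was not tested. The count ran from 3 to 6 over the alternatives.

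The enzymes that build the sugar chains were counted in the same way. In chondroitin and dermatan sulfate synthesis 1 of 19 genes was at least 2-fold higher, a share near the 5.32% of all genes, and 0 were lower (4.48% of all genes). The gene was Csgalnact1, with 4 control and 295 OTM UMIs. In keratan sulfate synthesis 1 of 7 was higher (5.32% of all genes), Chst1 at 2.60-fold on 12 control UMIs, and 0 were lower (4.48% of all genes). Of 11 receptors 0 were past 2-fold in either direction, where 5.32% of all genes were higher and 4.48% lower. Their median log2 ratio was 0.67 (Lrp1 0.90, Egfr 0.57, Itgb1 0.52). As no test was run there is no count by p-value. Up to 2 receptors were 2-fold higher and up to 1 lower under other processing, with at least 1 higher under 5 of 12 alternatives. Among 8 growth factors that members bind, 0 were 2-fold higher (5.32% of all genes) and 1 was lower (4.48% of all genes). The lower 1 was Tnf, on 22 control and 46 OTM UMIs and named after its value was seen. No growth factor was 2-fold lower under 4 of 12 alternatives, and 2 were 2-fold higher with thinned cells. Tgfb1, the best known ligand of decorin, had a log2 ratio of 0.39.

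A last list held 9 relatives with leucine-rich repeats and Ecm1, a matrix glycoprotein that lacks them and binds several matrix proteins. Of the relatives, Epyc had 0 control and 3 OTM UMIs and Optc 1 and 10, while Ecm2, beside Aspn, had 133 and 588. In the stroma 6 genes of the list had enough UMIs, of which 2 were at least 2-fold higher in OTM (5.32% of all genes) and 0 lower (4.48%). The relative among them was Podnl1, 4.35-fold higher over the whole stroma (20.3 and 88.4 CPM) but 1.01-fold within cluster 7 (102 and 103 CPM). Ecm1, with 243 control and 20047 OTM UMIs, was 15.9-fold higher over the whole stroma (70.5 and 1119 CPM), 4.77-fold in cluster 0, 7.89-fold in cluster 7 and 1.32-fold in cluster 8.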

How the data were processed

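Single-cell 3′ libraries (10x v3.1) of 2 mouse samples were used. The deposited UMI counts per gene and barcode were made by the authors with Cell Ranger 7.0.1 on mm10 (GRCm38), per the submitters' processing notes, which also name Seurat. Barcodes below 200 genes or above 20% mitochondrial counts were dropped, and the rest were scaled to 10000 and clustered with scanpy 1.11.5 (2000 variable genes, 30 components, 15 neighbours, Leiden resolution 1.0) without the family. Clusters that scored highest for immune or osteoclast classes were pooled and clustered again at resolution 0.8. Clusters were called X-like from 21 marker lists, with a score of at least 0.5 and at least 3 markers detected. The class also had to have more markers among the cluster's 10 leading genes than any other class. Clusters 0 and 16 stayed unnamed through this last rule. Doublets called (2 control, 8 OTM) were kept, and their removal was an alternative.

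Counts were summed per cluster and library and scaled to 1000000 (CPM). Intervals are exact Poisson (levels), exact conditional binomial (ratios) and Clopper-Pearson (shares), at 95%, and cover counting error only. Kept cells held 5593726 (control) and 35518568 (OTM) UMIs. Before filtering, the barcodes of both libraries held 502 to 222392 UMIs each. A count of 0 was set at 3 UMIs. For a share of 0 the limit given is 3 cells over the cells counted and not a Clopper-Pearson bound. Counts of genes past 2-fold were taken over those whose expected UMIs at equal CPM reached 10 in both groups. The ratio script was checked on simulated counts. Promoters are from RefSeq GRCm38.p6.

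Named were the 9 members, from each partner list the 2 most counted and the 2 most different genes, and 3 genes most like each member; those of Omd are not reported here. The members and lists were chosen with earlier results of these data known.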

Additional observations from a re-analysis of the deposited data

Results flagged for a closer look

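Aspn in OTM over control went opposite ways in 2 stromal clusters. Its log2 ratio was -1.02 in fibroblast-like cluster 7 and at least 4.72 in osteoblast lineage-like cluster 8, where the control count of 0 was set at 3 UMIs. The difference between the clusters was not tested, as there is 1 library a group. In cluster 8, 108 of the 186 OTM UMIs came from 1 cell, and in cluster 7 the ratio was 0.81 with each library clustered alone.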

How the results depend on the processing

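The share of family UMIs in the named stroma (50.1% control, 83.1% OTM) moved with what was named: 97.1% and 56.8% with no filter on barcodes, 40.7% and 56.6% with the stricter filter, 46.5% and 61.3% with doublets removed before clustering, 37.1% and 63.2% with thinned cells, 47.7% and 81.6% at resolution 0.6, 43.7% and 75.9% at resolution 1.5, 95.9% and 32.7% with each library clustered alone, 82.9% and 76.0% with classes by single-cell score, 99.3% and 96.8% with the unnamed clusters. Over all 7 stromal clusters (99.3% and 96.8%) it was 98.3% and 97.1% with no filter on barcodes, 97.7% and 96.8% with the stricter filter, 99.3% and 97.6% with doublets removed before clustering, 99.0% and 97.8% with thinned cells, 97.5% and 97.4% with each library clustered alone. In the named stroma the members at least 2-fold higher, 1 as reported, became 2 at Leiden resolutions 0.6 and 1.5, with the stricter filter and with the mean over cells, and 3 with classes by single-cell score and with the unnamed clusters. Those at least 2-fold lower, 0 as reported, became 1 with classes by single-cell score, with each library clustered alone, with the median of all genes set to 0 and with the unnamed clusters. Over all 7 stromal clusters the counts were 2 to 3 higher and 1 lower under 12 alternatives, and Lum, Fmod, Prelp, Ogn and Omd kept their direction in each.

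With no filter on barcodes, log2 ratios changed sign to Aspn 0.29 for the named stroma, Bgn 0.12, Aspn 0.25 for fibroblast-like cells and Dcn 0.16 for cluster 0. It also turned Dcn 0.88, Bgn 0.22, Fmod 0.63 for cluster 7, Dcn -0.71, Bgn -0.21, Fmod -0.53 for cluster contrast 7 over 0 in control and Dcn -0.20, Lum -0.52 for cluster contrast 17 over 7 in OTM. With the stricter filter (at least 500 genes, at most 10% mitochondrial counts), log2 ratios changed sign to Bgn 0.084 for fibroblast-like cells, Omd 0.019 for cluster 0 and Dcn 0.70, Bgn 0.084, Fmod 0.12 for cluster 7. Further changes were Bgn -0.040 for cluster contrast 7 over 0 in control, Fmod 0.50, Omd -0.12 for cluster contrast 8 over 7 in OTM and Dcn -0.43, Lum -0.60, Ogn -0.34 for cluster contrast 17 over 7 in OTM. With doublets removed before clustering, log2 ratios changed sign to Bgn 0.016 for fibroblast-like cells, Dcn 0.26 for cluster 0 and Bgn 0.079, Fmod 0.14 for cluster 7. The same held for Dcn -0.069 for cluster contrast 7 over 0 in OTM and Dcn -0.027, Lum -0.38, Ogn -0.26, Prelp -0.080 for cluster contrast 17 over 7 in OTM. With cells thinned to 1500 UMIs, log2 ratios changed sign to Dcn 0.32, Aspn 0.11 for the named stroma, Bgn 0.84, Ogn 0.24 for fibroblast-like cells and Dcn 0.15 for all 7 stromal clusters. Also turned were Dcn 0.63, Bgn 0.41, Fmod 0.14 for cluster 7, Bgn -0.011 for cluster 8 and Dcn -0.31, Bgn -0.43, Omd 0.10 for cluster contrast 7 over 0 in control. Beyond these it gave Dcn -0.16, Bgn -0.028 for cluster contrast 8 over 7 in OTM. At Leiden resolution 1.5, log2 ratios changed sign to Bgn 0.15 for fibroblast-like cells, Dcn 0.070, Bgn 0.13 for cluster 7 and Bgn -0.17 for cluster contrast 7 over 0 in control. A further change was Lum -0.16 for cluster contrast 17 over 7 in OTM. With each library clustered alone, log2 ratios changed sign to Fmod -0.13 for the named stroma, Bgn 0.22 for fibroblast-like cells and Aspn 0.017 for all 7 stromal clusters. Also changed were Dcn 0.12 for cluster 0, Dcn 0.28, Bgn 0.12, Fmod 0.45, Aspn 0.81 for cluster 7 and Bgn -0.025 for cluster 8. The last was Omd 0.24 for cluster contrast 8 over 7 in control. With the mean over cells, log2 ratios changed sign to Dcn 0.028 for all 7 stromal clusters. Without the cell with most family UMIs in each library, log2 ratios changed sign to Dcn 0.035 for cluster 7. The cause of these changes was not tested.

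Alternatives for single clusters, for contrasts between clusters and for all 7 stromal clusters were chosen after seeing the data, and follow the cluster that shares most cells with the one reported. No paired analysis was possible because there is 1 library a group. Leaving out a replicate was likewise not run. Depth limits Prelp and Fmod in the control library, with 30 and 169 UMIs, and every value of the control library's stromal clusters, which hold 35 cells or fewer apart from cluster 0. Free RNA and cell losses in digestion were not separated from expression. The levels are transcripts and not proteins of the matrix.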
